A study of Mus musculus with 10 samples.

Results

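Interferon-stimulated genes were followed across 5 libraries of mouse alveolar macrophages, the resident phagocytes of the airspace, from a study of the transcriptional repressor Bach2. The set was a list of 46 symbols, and all 46 were found among the 26173 genes of the table. It was divided by known inducer into 30 type I-like genes, which respond chiefly to interferon alpha and beta, and 16 gamma-like genes, which respond strongly to interferon gamma. Many genes of either class respond to both kinds of interferon. The labels describe female C57BL/6 mice aged 16 weeks and 5 groups with 2 samples each. The conditional control group is labelled as a control of the Bach2-floxed CD4cre line, and the labels do not say which of the alleles it carries. In the Bach2-floxed CD4cre knockout mice, 2 macrophage populations were taken, one with the surface markers of controls (normal-marker) and one with aberrant surface markers (aberrant-marker). The last 2 groups were wild-type mice and mice with a germline knockout of Bach2. CD4cre is a transgene used to delete floxed alleles in the T cell lineage, so the conditional label does not by itself place the deletion in macrophages. Bach2 was at most 0.0761 FPKM in any sample, and its level therefore does not check the genotype labels.

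The 2 samples of a group carried nearly the same values. Across genes, their log2 values correlated at 0.993 to 0.998, against 0.685 to 0.853 between groups. The squared difference between them, divided by the variance expected from counting alone, had a median of 0.490 to 0.608 within groups and 64.7 to 96.3 between groups. The 2 samples differed by about the sampling noise, so each pair was counted as 1 library. The labels do not say whether the 2 samples are repeat runs or come from separate mice. With the pair counted once, no p-value was computed, and every comparison below is between 2 libraries without a replicate check. Depth, estimated from the lowest values, was 7.47 to 9.41 M fragments per sample, so that 5 FPKM on a transcript of 2 kb stands for about 75 to 94 fragments. Each library was made from 100 pg of RNA with 18 cycles of PCR. A value of 0 is therefore given as listed at 0, not as absence of expression.

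Type I interferons bind a receptor made of Ifnar1 and Ifnar2, whose kinases Jak1 and Tyk2 act on Stat2. Stat2 joins Irf9 in a complex that binds a motif called the interferon-stimulated response element (ISRE) in the promoters of antiviral genes. Interferon gamma binds Ifngr1 and Ifngr2 and signals through Jak1 and Jak2 to promoters with a motif called the gamma-activated site (GAS). Irf1 carries that signal on to GTPases of host defence and to genes of antigen processing. In alveolar macrophages, the response belongs to the defence of the airspace against viruses and intracellular microbes.

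Promoter sequence is shown for some of the members, to display the elements that they share and those in which they differ. RefSeq promoter windows of 300 bases, from 250 before to 50 after a transcription start on GRCm38.p6, were found for 35 of the 46 members. The ISRE core was searched as GAAANNGAAA and the GAS core as TTCNNNGAA, on both strands and with overlapping matches allowed. The GAS letters are the same on either strand. The members printed next were picked from those whose window held a match, so they do not stand for the list. Usp18 and Zbp1, named below, had no window, and the window of Ifi47 held neither motif. In the stretches below, capitals mark the matches to either motif, and each stretch runs 5′ to 3′ on the strand of its gene, within the bases before the start. The stretch for Isg15 lies at chr4:156200840-156200931, minus strand, that for Ifit1 at chr19:34640750-34640848, plus strand, that for Irgm1 at chr11:48871421-48871485, minus strand and that for Igtp at chr11:58199476-58199555, plus strand. The other stretches are Oas1a at chr5:120907526-120907658, minus strand, Irf1 at chr11:53769889-53769967, plus strand and Psmb8 at chr17:34198063-34198141, plus strand.
Isg15: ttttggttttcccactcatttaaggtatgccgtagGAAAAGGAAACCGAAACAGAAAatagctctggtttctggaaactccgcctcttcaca
Ifit1: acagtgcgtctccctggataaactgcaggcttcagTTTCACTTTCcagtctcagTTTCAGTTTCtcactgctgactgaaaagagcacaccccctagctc
Irgm1: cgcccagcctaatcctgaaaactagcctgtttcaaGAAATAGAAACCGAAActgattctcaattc
Igtp: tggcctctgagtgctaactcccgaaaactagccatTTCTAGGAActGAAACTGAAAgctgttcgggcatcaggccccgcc
Oas1a: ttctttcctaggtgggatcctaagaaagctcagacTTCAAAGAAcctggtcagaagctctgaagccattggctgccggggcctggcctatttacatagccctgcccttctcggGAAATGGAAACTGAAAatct
Irf1: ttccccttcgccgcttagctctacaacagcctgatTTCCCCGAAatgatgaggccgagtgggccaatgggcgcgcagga
Psmb8: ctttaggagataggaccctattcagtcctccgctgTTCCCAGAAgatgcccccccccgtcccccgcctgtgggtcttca

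An ISRE match was present in 19 of the 35 members with a window (54.3%), against 3.99% of all 27025 genes with a window (3.44% of 32851 windows). The share was 52.4% of the 21 type I-like and 57.1% of the 14 gamma-like members, so the ISRE letters were about as frequent in both lists. A GAS match was present in 23.8% of the type I-like and 42.9% of the gamma-like members, against 9.55% of all genes with a window (8.30% of windows). Isg15 carried 3 overlapping ISRE matches and Irgm1 carried 2, while Igtp and Oas1a carried both motifs. Irf1 and Psmb8 carried a GAS match and no ISRE match. Tap1 and Psmb9, a peptide transporter subunit and an immunoproteasome subunit, start in opposite directions only 225 bases apart, and that interval held neither set of letters. It lies at chr17:34187331-34187555 and is shown on the plus strand, the strand of Tap1, because the 2 genes differed unequally between libraries, as given below.
Psmb9 to Tap1: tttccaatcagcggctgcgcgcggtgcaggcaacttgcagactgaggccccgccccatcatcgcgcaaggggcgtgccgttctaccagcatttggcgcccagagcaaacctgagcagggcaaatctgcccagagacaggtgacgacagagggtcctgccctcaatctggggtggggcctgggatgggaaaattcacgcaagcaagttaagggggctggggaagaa

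Of the 46 members, a mean of 1 FPKM or more was reached by 36 in the aberrant-marker library, 32 in the normal-marker, 31 in the germline knockout, 30 in the conditional control and 24 in the wild-type library. These are 78.3% to 52.2% of all 46 members, including 5 that did not enter the comparisons. Of the 11336 genes that entered, 79.4% to 74.4% reached that level. The member shares are lowered by the members that did not enter, so these ranges are not like for like. A gene entered where at least 2 samples reached 1 FPKM, and 41 members did (27 type I-like, 14 gamma-like). The members that did not were Mx2, Oas3, Ifi44, Iigp1 and Cxcl10. Among the 41, the aberrant-marker library held the highest value for 17 (41.5%, against 28.1% of all entered genes) and the normal-marker library for 12 (29.3%, against 15.6%). There were 3 members, Ifit1, Mx1 and Rsad2, that reached 1 FPKM in the aberrant-marker library alone (6.52% of all 46, near the 5.01% of all entered genes). In every library, 19 members reached it (41.3% of all 46, against 53.8% of all entered genes). Both member shares again count the members that did not enter. In those 19, the highest library was 1.81 (Isg20) to 43.5 times (Oas1a) the lowest, with a median of 5.35 times, against 3.38 times for the 6103 genes of the table that reached 1 FPKM in every library. No library was the highest for all members, and members with neighbouring roles were often highest in different libraries.

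**Figure D1:**
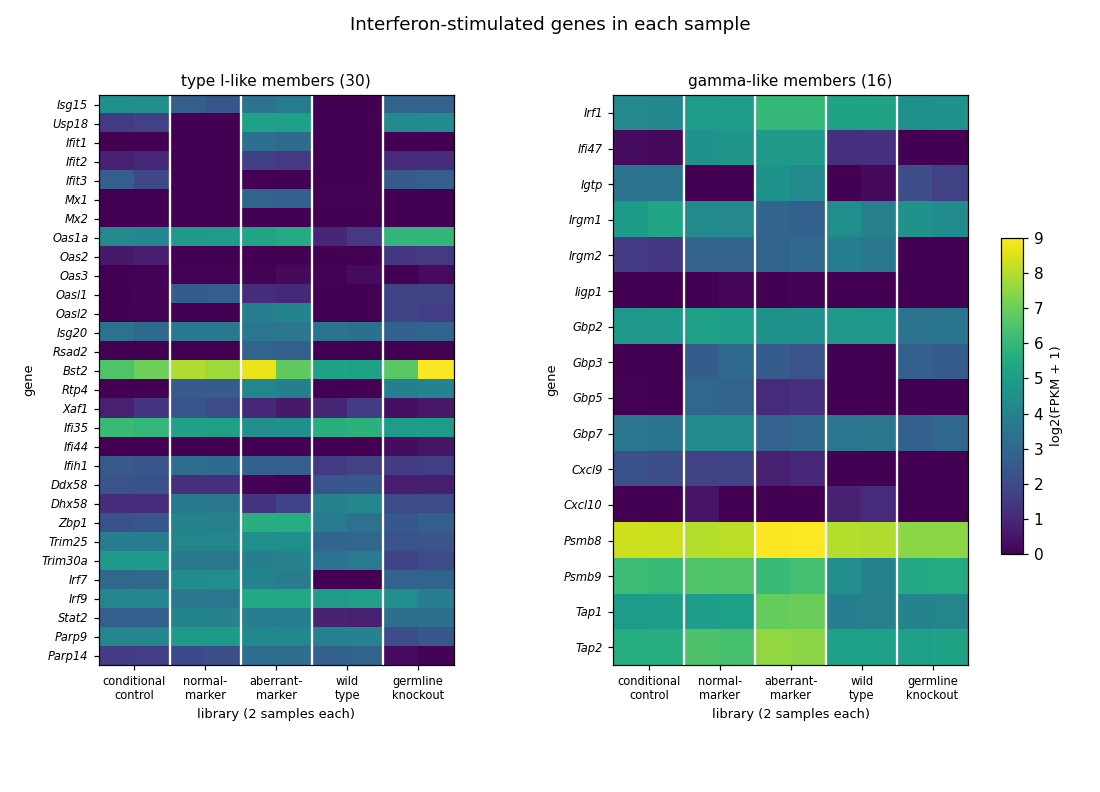
Level of each of the 46 members (rows) in the 10 samples (columns, 2 per library), as log2(FPKM + 1) in colour, for the 30 type I-like genes on the left and the 16 gamma-like genes on the right. The 2 samples of a library look alike except for Bst2 in the aberrant-marker and germline knockout libraries, and Psmb8 is the brightest row, up to 499.6 FPKM.

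A member was called higher or lower when the difference on log2(FPKM + 1) was 2 units or more (4-fold), for the means as for every pairing of samples, and the larger mean was 20 FPKM or above. Differences on this scale understate the change of genes with low values. Between the 2 libraries without a knockout, wild type and conditional control, 0 members were higher and 1, Isg15, was lower, against 0.935% and 1.17% of all 11336 genes. This pair shows how far 2 libraries with no knockout label, called the unaffected libraries here, stood apart. Besides Isg15, the transcription factor Irf7 was listed at 0 in both wild-type samples and stood at 7.29 and 7.55 FPKM in the conditional control, and Stat2 was at 0.883 and 0.711 against 5.48 and 5.66. The median difference, wild type minus conditional control, was −0.14 for type I-like and −0.18 for gamma-like members, and 0.00 for all genes.

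In the aberrant-marker library against the conditional control, 3 members were called higher (Usp18, Zbp1 and Ifi47; background 4.09% of all genes) and 0 lower (background 3.76%). The median difference was 0.87 for type I-like and 1.06 for gamma-like members, against 0.00 for all genes. At least 2-fold higher were 13 of the 27 type I-like (48.1%) and 8 of the 14 gamma-like members (57.1%), against 25.2% of all genes. At least 2-fold lower were 3 (11.1%) and 2 (14.3%), against 25.1% of all genes. These counts and medians describe the members that entered, some of which entered only through the library where they were high, and support nothing by themselves. With 5 FPKM in place of 20 as the limit on the larger mean, 8 members were called higher (19.5% of those that entered, against 9.68% of all genes), the further ones being Ifit1, Mx1, Oasl2, Rsad2 and Rtp4. In the normal-marker library against the same control, 1 member, Ifi47, was higher (background 0.935%) and 0 were lower (background 0.838%). Its median differences were 0.31 for type I-like and 0.58 for gamma-like members. These 2 comparisons share the conditional control library, so a value that is low there by itself moves both.

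Within the conditional knockout, aberrant-marker against normal-marker, 2 members were higher, Usp18 and Igtp (background 4.02%), and 0 were lower (background 3.26%). The median differences were 0.34 for type I-like and −0.11 for gamma-like members, and 0.02 for all genes. The gamma-like median turned to 0.16 when each gene was read from its most abundant transcript alone. In the germline knockout against wild type, 1 member, Oas1a, was higher (background 2.73%) and 0 were lower (background 3.36%), and both medians were 0.00. Here 12 of the 27 type I-like members were at least 2-fold higher (44.4%, against 20.8% of all genes), and 5 were at least 2-fold lower (18.5%, against 24.4%). Of the gamma-like members, 3 lay on either side (21.4% each), near these shares of all genes. Wild type was itself low: 11 of the 30 type I-like members were listed at 0 in both its samples, against 4 in the conditional control. In wild type against conditional control, 29.6% of the 27 were at least 2-fold lower (all genes 19.8%) and 11.1% higher (14.8%). Isg15 and Irf7, among the 12, had germline knockout means of 6.21 and 6.28 FPKM, below the 21.0 and 7.42 of the conditional control. Against wild type, the aberrant-marker library had 6 members higher (Usp18, Oas1a, Ifi47, Igtp, Tap1 and Tap2; background 4.75%) and 0 lower (background 3.91%), with medians of 1.53 and 1.07. That comparison shares its libraries with the others and is no separate evidence.

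**Figure D2:**
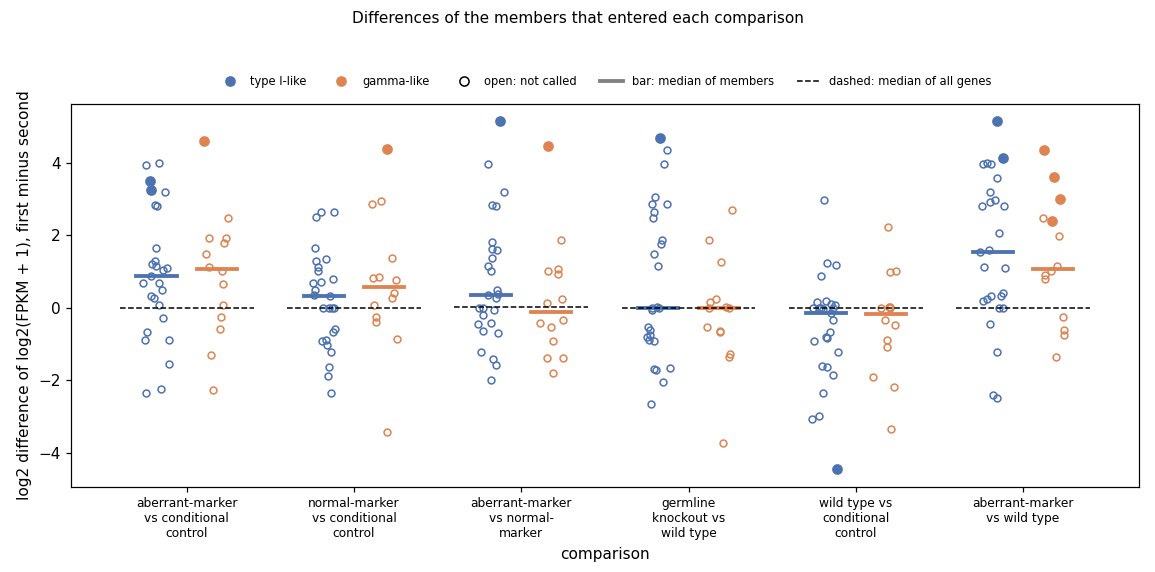
Difference of each member that entered (points), first library minus second, on the log2(FPKM + 1) scale, in 6 comparisons. Blue points are type I-like and orange points gamma-like genes, filled where called, coloured bars are their medians and the dashed line is the median of all genes. The type I-like median is highest, at 1.53, for aberrant-marker against wild type, and members lie on both sides of 0 in every comparison.

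Markers of other cells moved with the aberrant-marker library. Summed over 13 markers of mature or conventional dendritic cells, among them Ccr7 and Fscn1, the level was 6062 to 6097 FPKM there. It was 339.5 to 343 in the germline knockout and 33.0 to 35.6 in the conditional control. Most of the aberrant-marker sum came from Ccl22, Ccr7 and Cd83 (means 2002, 1564 and 1276). In that library 11 of the 13 reached 1 FPKM, against 5 in the conditional control. Xcr1 and Clec9a ran the other way, with means under 0.1 against 2.09 and 0.620 against 1.90. Of 13 T cell markers, 10 were at 1 FPKM or more in the aberrant-marker library (summed level 279), among them Cd3e at 17.5 and 17.9, and 0 were in the conditional control (0.484 to 0.497). Of 8 natural killer markers, 2 reached 1 FPKM in the aberrant-marker library, with Ncr1 and Gzma listed at 0. Of 11 plasmacytoid dendritic cell markers, 8 reached 1 FPKM there (summed level 146 to 151), against 5 in the conditional control (116). Most of that sum came from Irf8 (means 92.9 against 61.0). Il3ra, Spib, Ccr9 and Cox6a2 were also higher than in the conditional control. Lair1 (6.26 against 38.6), Runx2 (2.11 against 7.10) and Tcf4 (2.39 against 2.83) were lower. The defining Siglech, and also Ly6d and Klk1, were under 0.1 FPKM in every sample. All 5 B cell markers were listed at 0 in all samples. Of 15 alveolar macrophage markers, 12 reached 1 FPKM in the aberrant-marker and germline knockout libraries and 15 in the other libraries. Many of the 15 stood far lower in the aberrant-marker and germline knockout libraries. In the aberrant-marker library against the conditional control, mean levels were 0.134 against 197 FPKM for Siglec5 (the table's symbol for Siglec-F), 0.258 against 224 for Marco, 2.27 against 966 for Ear1, 0.266 against 299 for Cidec, 315 against 3670 for Ear2 and 85.1 against 529.7 for Lpl. In the germline knockout against wild type, they were 0.0247 against 151 for Siglec5, 13.5 against 339 for Marco, 0.964 against 1055 for Ear1, 0 against 405 for Cidec, 255 against 5139 for Ear2 and 89.5 against 559 for Lpl. Chil3 did not follow these, at 8291 against 9166 and at 46574 against 9278 FPKM, and Fabp5 was higher in both knockout libraries (1355 against 333, and 1526 against 335). Itgax and Fabp4 were also higher in the germline knockout than in wild type (365 against 289, and 181 against 145). In the aberrant-marker library they were lower than in the conditional control (124 against 253, and 83.7 against 104). The alveolar macrophage label is thus not borne out by many of its markers in the aberrant-marker and germline knockout libraries, which are called by their labels only. Other lists also differed in the germline pair: the monocyte sum was 107 to 109.9 FPKM against 28.7 to 29.6 in wild type (Itgam at 99.3 against 0), and the dendritic cell sum in wild type was 66.7 to 74.1. The part of these cells in the members' levels was not tested, and in bulk RNA fewer cells of a type and less RNA per cell cannot be told apart.

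Isg15, the ubiquitin-like protein that is joined to other proteins during an interferon response, measured 21.9 and 20.1 FPKM in the conditional control. It was at 5.60 and 4.28 in the normal-marker, 9.82 and 11.9 in the aberrant-marker and 6.37 and 6.05 in the germline knockout library, and listed at 0 in both wild-type samples. It was thus highest in 1 of the 2 unaffected libraries and lowest in the other, and all knockout libraries lay between them. Usp18, the protease that removes Isg15 and also restrains the type I receptor, had another order. It was at 34.2 and 34.4 FPKM in the aberrant-marker and a mean of 19.2 (18.4 in sample 5) in the germline knockout library, 1.96 and 2.33 in the conditional control, and listed at 0 in the normal-marker and wild-type libraries. Its aberrant-marker difference from the conditional control was 3.49 log2 units. That germline knockout mean lay just under the 20 FPKM that a call needs, so no call was made there. Uba7, the enzyme that activates Isg15 for conjugation, was no member and, like Isg15, was highest in the conditional control, at 34.4 and 34.8 FPKM. It was at 14.7 and 12.9 in the normal-marker and 0.993 and 0.740 in the aberrant-marker library (−4.25 from the conditional control). In wild type it was at 6.17 and 5.77, also called lower than the conditional control, and in the germline knockout at 5.74 and 4.99.

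The Ifit proteins bind foreign RNA. Ifit1 was at 8.69 and 7.73 FPKM in the aberrant-marker library and under 0.1 in all others, and the GTPase Mx1 (6.48 and 5.87) and the radical enzyme viperin, Rsad2 (6.43 and 5.61), had the same pattern. Ifit3 had the opposite one: it stood at 5.47 and 2.81 FPKM in the conditional control and 4.89 and 5.50 in the germline knockout, and was under 0.1 in the rest. Ifit2 was at most 2.23 FPKM. Neighbouring genes of 1 family, with ISRE matches in the windows of Ifit1 and Ifit3, were thus each seen in libraries where the other was not. Most of the Mx1 signal in the aberrant-marker library, 5.93 and 5.53 FPKM, was on a non-coding RefSeq transcript, and 0.555 and 0.335 on the coding one. C57BL/6 mice are known to carry a defective Mx1 allele.

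The Oas enzymes make the short adenylates that activate RNase L. Oas1a measured 18.0 and 17.4 FPKM in the conditional control, 28.3 and 29.5 in the normal-marker, 37.0 and 44.7 in the aberrant-marker, 0.947 and 1.80 in the wild-type and 59.7 and 60.1 in the germline knockout library. It was the type I-like member with the widest range among those seen in every library, and its calls, 4.68 log2 units for germline knockout against wild type and 4.14 for aberrant-marker against wild type, rest on the low wild-type value. Against the conditional control the aberrant-marker difference was 1.16. Oasl2 was at 13.7 and 15.5 FPKM in the aberrant-marker and 2.60 and 2.14 in the germline knockout library, and at most 0.0347 elsewhere. Oasl1 was highest in the normal-marker library (5.28 and 5.43), followed by the germline knockout (2.63 and 2.62) and the aberrant-marker library (1.25 and 0.997), and was at most 0.0579 in both unaffected libraries. Oas2 was at most 1.87 and Oas3 at most 0.196 FPKM. Oas1a, the Ifit genes and the GTPases below belong to families of related genes. Reads shared with relatives were divided by a model, so their values are uncertain to a degree that differs by gene.

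Among the other type I-like effectors, Bst2 (tetherin, which holds budding virus at the cell surface) had the highest mean level. It stood at 89.9 and 128 FPKM in the conditional control, 241 and 203 in the normal-marker, 422 and 112 in the aberrant-marker, 35.7 and 33.7 in the wild-type and 104 and 489.7 in the germline knockout library. The 2 samples of the aberrant-marker library were 1.90 log2 units apart and those of the germline knockout 2.23, so both overlapped the conditional control and the normal-marker library. Only the low wild-type value stood apart from every other library. The normal-marker library lay above the conditional control without overlap, by 1.02 log2 units and with no call. Bst2 was the only member at least 2-fold apart within a library. Ifi35, which binds other response proteins, measured 67.5 and 61.2 FPKM in the conditional control, 34.2 and 34.0 in the normal-marker, 20.6 and 22.1 in the aberrant-marker, 48.6 and 53.6 in the wild-type and 29.6 and 30.0 in the germline knockout library. It was lower in each of the 3 knockout libraries than in both unaffected ones, without overlap and with no call (−1.55 for aberrant-marker against conditional control). Rtp4 ran against it: it was listed at 0 in both unaffected libraries and was at 5.07 and 5.33 in the normal-marker, 16.4 and 13.7 in the aberrant-marker and 13.9 and 15.3 in the germline knockout library. Isg20, an RNA exonuclease, varied least, from 5.93 to 11.3 FPKM, and Xaf1 was at most 4.26.

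**Figure D3:**
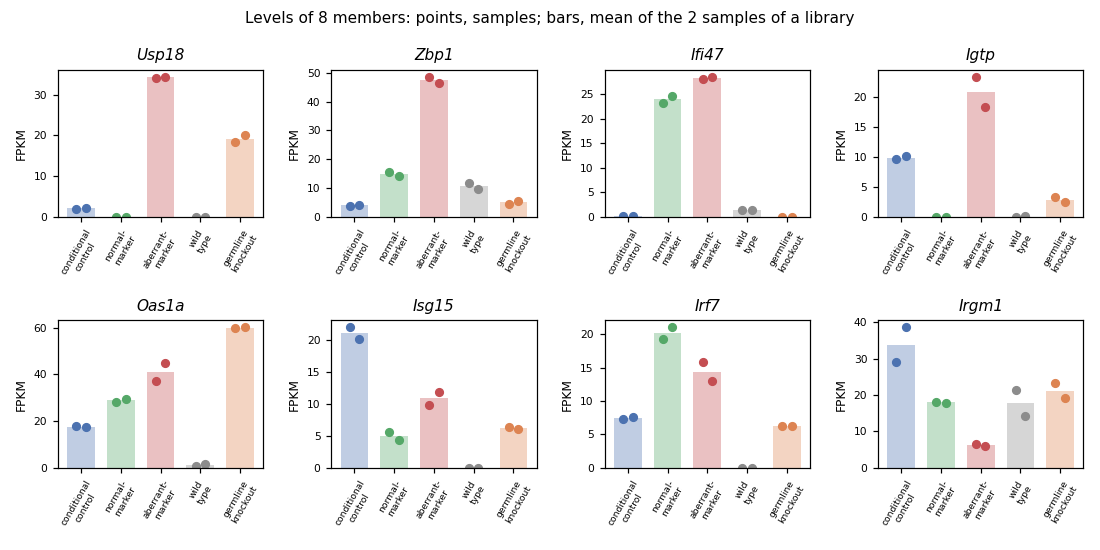
FPKM (linear axis from 0) of 8 members in each library. Points are the 2 samples and bars their mean. Usp18 and Zbp1 are highest in the aberrant-marker library (34.3 and 47.5 FPKM), Oas1a in the germline knockout (59.9), Irf7 in the normal-marker library (20.2), and Isg15 and Irgm1 in the conditional control (21.0 and 33.9).

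The sensors of foreign nucleic acid did not share an order. Zbp1, which binds left-handed double-stranded nucleic acid and can start cell death, stood at 3.84 and 4.31 FPKM in the conditional control, 15.5 and 14.1 in the normal-marker, 48.6 and 46.3 in the aberrant-marker, 11.7 and 9.55 in the wild-type and 4.60 and 5.56 in the germline knockout library. The aberrant-marker value was 3.25 log2 units above the conditional control and 2.06 above wild type, the latter without a call because not every pairing of samples reached the limit. Ddx58 (RIG-I) measured 3.89 and 3.80 FPKM in the conditional control and 4.29 and 4.57 in wild type, and lower in the 3 knockout libraries, at most 1.39, with 0.0511 and 0 in the aberrant-marker library. Its relative Dhx58 (LGP2) was at 15.4 and 17.1 FPKM in wild type and 11.4 and 11.3 in the normal-marker library, and at most 3.31 in the other 3. Ifih1 (MDA5) stayed between 1.87 and 8.22 FPKM. Trim30a, a restraint on inflammatory signalling, was highest in the conditional control (27.2 in each sample) and lowest in the germline knockout (2.60 and 3.11), and Trim25, the ubiquitin ligase that acts with RIG-I, was highest in the aberrant-marker library (21.6 and 21.3) and lowest in the germline knockout (3.89 and 4.12).

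The transcription factors of the response also differed in order. Irf7, the amplifier of interferon alpha, stood at 7.29 and 7.55 FPKM in the conditional control, 19.3 and 21.0 in the normal-marker, a mean of 14.4 (15.8 in sample 3) in the aberrant-marker and 6.32 and 6.23 in the germline knockout library, and listed at 0 in wild type. Stat2 ran alongside, at 5.48 and 5.66, 15.7 and 14.8, 13.4 and 12.9, 8.99 and 8.96, and 0.883 and 0.711 FPKM in the same order of libraries. Both were highest in the normal-marker library and lowest in wild type. Irf9, the DNA-binding partner of Stat2, measured 16.6 and 17.1 FPKM in the conditional control, 11.0 and 10.6 in the normal-marker, 40.7 and 39.9 in the aberrant-marker, 30.8 and 33.0 in the wild-type and 20.1 and 13.3 in the germline knockout library. Its order put the normal-marker library last, unlike Irf7 and Stat2, with the conditional control and germline knockout overlapping. Irf1 stood at 17.9 and 17.5 FPKM in the conditional control, 30.4 and 31.0 in the normal-marker, 62.5 and 62.8 in the aberrant-marker, 36.5 and 35.6 in the wild-type and 22.0 and 23.3 in the germline knockout library. The 2 unaffected libraries were 0.99 log2 units apart, and the aberrant-marker value lay 1.77 above the conditional control and 0.78 above wild type. None of these 4 was called. The ADP-ribosyltransferases Parp9 and Parp14 were both lowest in the germline knockout, at 3.38 and 4.38 and at 0.189 and 0.0647 FPKM.

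The gamma-like GTPases of host defence fell into several patterns. Ifi47 measured 0.234 and 0.179 FPKM in the conditional control, 23.2 and 24.6 in the normal-marker, 28.1 and 28.5 in the aberrant-marker and 1.40 and 1.45 in the wild-type library, and listed at 0 in the germline knockout. It was high in both conditional knockout libraries (4.37 and 4.60 log2 units above their control) and low in the rest. The normal-marker call was lost when only the most abundant transcript was used (4.20). Igtp stood at 9.64 and 10.1 FPKM in the conditional control, 23.3 and 18.3 in the aberrant-marker and 3.39 and 2.42 in the germline knockout library, under 0.1 in the normal-marker library, and under 0.1 and 0.148 in wild type. It was thus the member that set the 2 conditional knockout populations furthest apart among the gamma-like genes, at 4.45 log2 units. This call and that against wild type were lost when aberrant-marker sample 3 was left out (4.27 and 4.16), since sample 8 is under 20 FPKM.

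Irgm1, which regulates the other GTPases of its family, measured 29.2 and 38.6 FPKM in the conditional control, 18.2 and 17.9 in the normal-marker, 6.61 and 5.93 in the aberrant-marker, 21.3 and 14.3 in the wild-type and 23.2 and 19.2 in the germline knockout library. It was lowest in the aberrant-marker library without overlap, by −2.26 log2 units from the conditional control. It was not called, since 1 pairing of samples fell short, but was called lower without aberrant-marker sample 3 (−2.33) or without conditional control sample 1 (−2.45). Irgm1 and Igtp, both with ISRE letters close before the start in the stretches above, thus lay on opposite sides of the conditional control in the aberrant-marker library. Irgm2 was highest in wild type (13.6 and 11.1) and under 0.1 in the germline knockout. The guanylate-binding protein Gbp2 was between 22.3 and 33.7 FPKM in 4 libraries and at 9.77 and 10.3 in the germline knockout. Gbp3 was at 3.98 to 7.40 FPKM in the 3 knockout libraries and under 0.1 in both unaffected ones, and Gbp5 was at 7.12 and 6.44 in the normal-marker library and at most 1.34 elsewhere. The chemokine Cxcl9, which draws T cells, stood at 3.77 and 3.40 FPKM in the conditional control and 2.45 and 2.56 in the normal-marker library, and under 1 in the other libraries.

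Psmb8 had the highest level of the gamma-like list in every library, while Tap1, Tap2 and Psmb9 were passed by Irf1 in wild type. Psmb8, a catalytic subunit of the immunoproteasome, measured 316 and 312 FPKM in the conditional control, 256 and 267 in the normal-marker, 494 and 499.6 in the aberrant-marker, 252 and 244 in the wild-type and 172 and 173 in the germline knockout library. Psmb9, another such subunit, was at 71.4 and 68.4, 91.6 and 92.9, 66.8 and 78.8, 21.0 and 14.6, and 42.0 and 45.4 FPKM in the same order. The aberrant-marker library was thus the highest for Psmb8, while for Psmb9 it overlapped the conditional control. Tap1 and Tap2 form the transporter that moves peptides into the endoplasmic reticulum. Tap1 stood at 30.8 and 31.1 FPKM in the conditional control, 31.3 and 33.3 in the normal-marker, 117 and 122 in the aberrant-marker, 13.8 and 14.2 in the wild-type and 15.2 and 16.1 in the germline knockout library. Tap2 was at 46.3 and 47.6, 88.9 and 82.6, 187 and 174, 34.4 and 32.6, and 33.1 and 35.5 FPKM in that order. Both transporter genes were highest in the aberrant-marker library, 1.92 log2 units above the conditional control, just short of a call, and were called higher against wild type (3.01 and 2.39). Tap1 and Psmb9, whose starts flank the interval printed above, had aberrant-marker differences of 1.92 and 0.06 from the same control.

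**Figure D4:**
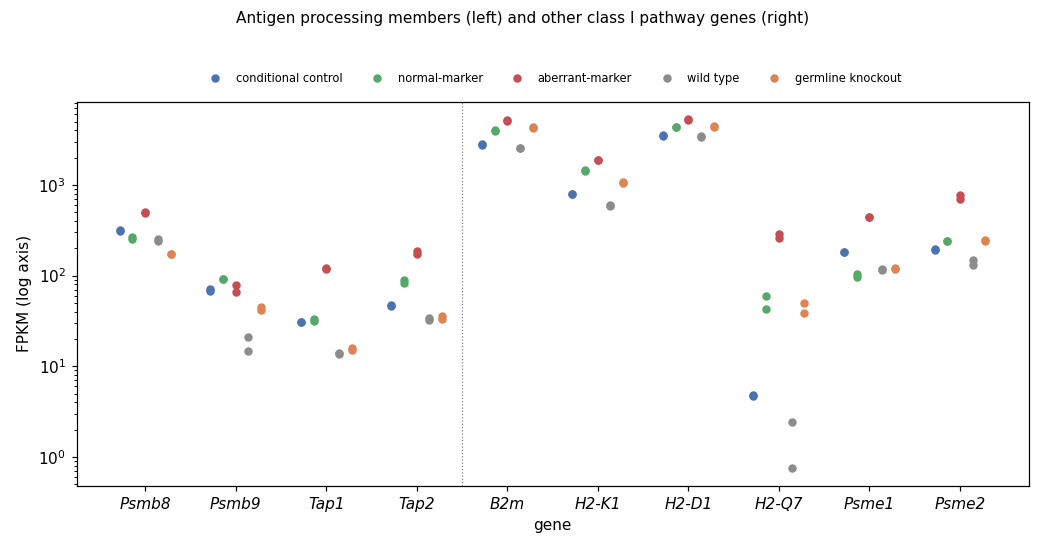
FPKM on a log axis of 4 antigen processing members (left of the dotted line) and 6 further genes of the class I pathway (right), with 2 points per library, 1 per sample. Every gene drawn except Psmb9 has its highest mean in the aberrant-marker library (H2-Q7 at 259 and 285 FPKM). From wild type to the aberrant-marker library, the means of B2m run from 2534 to 5099 FPKM and those of H2-D1 from 3407 to 5258.

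Genes of the pathway outside the 46 were taken from a fixed list of 151 genes in the table, of which 118 entered. In the aberrant-marker library, 16 were called higher and 8 lower than in the conditional control, where 4.09% and 3.76% of all genes were, and the median difference was 0.30. Of 17 class I presentation genes, 3 were higher and 0 lower, namely H2-Q4, H2-Q6 and H2-Q7. H2-Q7 measured 4.80 and 4.76 FPKM in the conditional control, 43.4 and 59.7 in the normal-marker, 259 and 285 in the aberrant-marker, 2.42 and 0.748 in the wild-type and 49.9 and 38.6 in the germline knockout library. It was higher in every knockout library than in both unaffected ones, and was called higher in the normal-marker library too (3.19). The H2-Q genes are near-identical copies, and their values are uncertain.

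In the receptor and signalling list, 3 of 14 genes were higher (Jak2, Socs1 and Socs3) and 1 lower (Ptpn6) in the aberrant-marker library than in the conditional control. Jak2, a kinase of the gamma receptor, stood at 12.5 and 13.3 FPKM in the conditional control, 155 and 158 in the aberrant-marker and 45.3 and 46.5 in the germline knockout library, against 7.60 and 7.18 in wild type. Socs1, a feedback inhibitor of these kinases, was at 87.4 and 82.0 FPKM in the aberrant-marker and 45.3 and 41.0 in the germline knockout library, and at most 0.133 in both unaffected libraries. Both were called higher in the germline knockout against wild type (2.48 and 5.46), as was Socs3 (4.20). The phosphatase Ptpn6 fell from 290 and 289 to 48.7 and 47.2 FPKM in the aberrant-marker library (−2.57). The receptors themselves were present throughout, with an exception. Ifnar2 was at 40.8 to 100.2 FPKM, Ifngr1 at 44.3 to 167 and Ifngr2 at 36.6 to 222 over the 10 samples. Ifnar1 was at 6.98 to 10.8 FPKM in the 3 conditional libraries, 22.5 and 22.4 in the germline knockout and only 0.0950 and 0.0644 in wild type (germline knockout against wild type 4.44, called).

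Interferon genes themselves were not seen: Ifnb1 and Ifng were listed at 0 in all 10 samples, and 3 of the 24 genes of the ligand list entered the comparisons, none of them an interferon. Of these, Il15 was at 32.6 and 33.7 FPKM in the aberrant-marker library against 0.261 and 0.0863 in the conditional control (4.86, called). Il18, an inducer of interferon gamma, fell from 401 and 417 to 25.1 and 22.2 FPKM (−4.06), and in the germline knockout it was at 1.57 and 0.855 against 480 and 470 in wild type (−7.75). Among the 21 sensors and adaptors that entered, of 22, the regulators Irf4 and Irf5 were higher in the aberrant-marker library than in the conditional control (4.59 and 2.96), and Mavs, the adaptor of RIG-I and MDA5, and Tlr8 were lower (−4.76 and −4.75). Mavs measured 78.7 and 77.7 FPKM in the conditional control and 1.95 and 1.91 in the aberrant-marker library, and it was also called lower in the germline knockout against wild type (−2.73). Of 74 further interferon-stimulated genes, 63 entered, and 7 of these were higher and 4 lower than in the conditional control. Those higher were Ccl5, Cd274, Epsti1, Ifi27l2a, Ifitm3, Ms4a4c and Pyhin1, and those lower were Isoc1, Ly6e, Pnpt1 and Uba7. Ccl5, a chemokine that T cells and dendritic cells also make, was at 533 and 499 FPKM in the aberrant-marker and 96.3 and 80.1 in the germline knockout library, and at most 0.995 elsewhere.

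In the other comparisons, the normal-marker library had 5 genes of the list higher and 1 lower than the conditional control. Higher were H2-Q6, H2-Q7, Ifi27l2a, Parp12 and Ticam1, and lower was Tyk2, a kinase of the type I receptor, at 41.3 and 38.9 against 8.25 and 7.16 FPKM. Between the conditional knockout populations, 15 were higher and 9 lower in the aberrant-marker library. Ptpn2 and Psme1 were higher there and not against the control, with Ptpn2 at 103 and 106 against 10.4 and 9.14 FPKM and Psme1 at 442 in each sample against 105 and 96.6. Parp12 and Ticam1 were lower than in the normal-marker library (−2.32 and −3.67). In the germline knockout, 9 were higher and 3 lower than in wild type, among them Mnda (4.42) and Isoc1 (2.09) higher and Trex1, a DNA exonuclease that limits the interferon response, lower (−2.85). Between wild type and the conditional control 0 were higher and 2 lower (Nt5c3 and Uba7), and between the aberrant-marker library and wild type 18 were higher and 5 lower, including Phf11b (2.17) and Psme2 (2.39) higher and Irf3 (−2.19) and Tlr4 (−2.15) lower. Of all genes, the shares higher and lower were 0.935% and 0.838% for normal-marker against conditional control, 4.02% and 3.26% between the conditional knockout populations, and 2.73% and 3.36% in the germline pair. For wild type against conditional control the shares were 0.935% and 1.17%, and for the aberrant-marker library against wild type 4.75% and 3.91%. The marker levels given above for the aberrant-marker and germline knockout libraries stand beside the counts in which those libraries take part, and their part in them was not tested.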

How the data were processed

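RNA from 10 alveolar macrophage samples was amplified from 100 pg of input with 18 PCR cycles, per the labels' protocols. The deposited values are FPKM for 45913 RefSeq transcripts, estimated by the authors; Bowtie 1.1.2 and eXpress 1.5.1 are named per the submitters' processing notes, without a role. The genome build of that alignment is not given in the sources used here. Low-input values can fall to 0 by loss of rare transcripts, and reads shared by gene copies are divided by a model.

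Transcripts with the same Entrez number were added up, giving 26173 genes. An approximate depth came from the lowest nonzero FPKM steps of genes with a lone transcript and their GENCODE M21 lengths. The 2 samples of a group were averaged to 1 library, and the rule of size given above was used with a pseudocount of 1 FPKM (Python 3.11.15, pandas 2.3.3, numpy 2.4.6, matplotlib 3.10.9). The rule was also run on simulated samples that held counting noise alone. That run checks the working of the rule and says nothing of the spread between mice or libraries. Named in full were members called in any comparison, the 3 highest of each list, Oas, Irf and Stat members at 5 FPKM or more, and listed pathway genes that were called, with the receptors, Ifnb1 and Ifng; others are given by their range, and 1 pathway gene that the rule names is not reported here. The members, lists and rules were chosen with earlier results of these data known. Alternatives were the pseudocount, the floor, the threshold, the filter, rescaling, the transcript used and leaving out each sample.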

Additional observations from a re-analysis of the deposited data

Results flagged for a closer look

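For 15 of the 41 members that entered (36.6%), every pairing of samples gave opposite directions in aberrant-marker minus conditional control and in germline knockout minus wild type. The same held for 31.3% of all 11336 genes, so the share among members is near that of the table. For 2 of the 15 at least 1 of the differences was called. Zbp1 was 3.25 log2 units higher in the aberrant-marker library, and its germline difference was −0.93. Ifi47 was 4.60 log2 units higher in the aberrant-marker library, and its germline difference was −1.28. Not called in either pair, and with the conditional difference above 0 and the germline difference below it, were Irgm2 (1.48 and −3.74), Parp14 (1.64 and −2.66), Irf1 (1.77 and −0.65), Irf9 (1.21 and −0.90), Dhx58 (0.50 and −2.04), Mx1 (2.84 and −0.06), Trim25 (0.69 and −0.63), Psmb8 (0.66 and −0.52), Isg20 (0.28 and −0.53) and Parp9 (0.08 and −1.69). The reverse was seen for Isg15 (−0.89 and 2.85), Ifit3 (−2.36 and 2.63) and Oas2 (−0.67 and 1.48). The germline difference of Mx1 rests on only 0.0386 and 0.0397 FPKM in wild type against values listed at 0, so its direction is not informative. The difference between the pairs was not tested, since each group was counted as 1 library.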

How the results depend on the processing

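With a floor of 5 FPKM in the higher library, the members called became 8 for aberrant-marker against conditional control, 7 for normal-marker against conditional control, 6 for aberrant-marker against normal-marker, 10 for germline knockout against wild type, 6 for wild type against conditional control and 15 for aberrant-marker against wild type. With no floor they were 10, 7, 6, 10, 7 and 17 in that order, and with a 2-fold threshold 9, 4, 5, 3, 5 and 11. Of all 11336 genes, those settings called, in the same order, 19.2%, 9.39%, 19.1%, 17.0%, 10.6% and 21.6% (floor of 5 FPKM, members 19.5%, 17.1%, 14.6%, 24.4%, 14.6% and 36.6%), 22.2%, 11.8%, 22.1%, 19.6%, 12.9% and 24.3% (no floor, members 24.4%, 17.1%, 14.6%, 24.4%, 17.1% and 41.5%) and 17.7%, 7.38%, 17.5%, 15.1%, 7.96% and 18.9% (2-fold, members 22.0%, 9.76%, 12.2%, 7.32%, 12.2% and 26.8%). These settings admit lower or smaller differences by construction, and with a floor of 5 FPKM wild type and conditional control also stood 6 calls apart. With the most abundant transcript alone, normal-marker against conditional control had 0 calls (1.77% of all genes). Leaving out each sample in turn gave 1 to 2 calls for aberrant-marker against normal-marker (1 without aberrant-marker sample 3), 1 to 2 for germline knockout against wild type (2 without germline knockout sample 5) and 1 to 2 for wild type against conditional control (2 without wild-type sample 4). In the other 50 of 72 alternatives the counts stayed within 1.5 times. Of 168 values of single calls, 3 lost the call and 0 changed direction, the former being those of Ifi47 and Igtp given above. Of 144 list medians, 33 moved, and 1 changed sign, given above. Rescaling moved the median of all genes by at most 0.04 log2 units. No paired analysis was possible because the samples carry numbers 1 to 10 that no 2 groups share. The labels leave unsaid whether the 2 samples of a group are separate mice, and their differences are about those of counting, so no spread between mice was estimated.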
